A study of Homo sapiens with 54 samples.

Results

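A set of 46 interferon-stimulated genes was followed through the 18 groups of a Cas13 experiment in HEK293T cells. The genes were chosen by symbol from a list, with earlier results of these data known. All 46 were among the 38137 genes of the expression table. Of these, 32 had enough reads to be tested, as did 15378 genes of the whole table. The other 14 are described by their counts.

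All 54 RNA libraries came from HEK293T, a line of human embryonic kidney origin. RfxCas13d, an RNA-guided nuclease that can also cut bystander RNAs after it binds its target, was compared with the engineered variants N2V7 and N2V8, which were made to lessen that activity. Cells were transiently transfected with plasmids for 1 effector, named WT, N2V7 or N2V8 and driven by the CAG promoter, and for crRNA-13 against C9ORF72 (WT_S13, N2V7_S13, N2V8_S13), 1 of 3 further crRNAs (S3, S4 or S7, in groups named in the same way) or a non-targeting crRNA (WT_NTG, N2V7_NTG, N2V8_NTG). The labels do not give the target sites of S3, S4 and S7. ASO2 and ASO4 cells received an antisense oligonucleotide against C9ORF72, by a route that the labels do not state, and UT cells were untransfected. Each group had 3 libraries from independent biological replicates, harvested at 48 h by the labels and at a later time by the study's text. The NTG groups differ from UT in plasmid, transfection reagent and effector at once, so that these cannot be told apart.

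Interferon-stimulated genes are switched on when a cell senses foreign nucleic acid or is reached by interferon. Sensors such as IFIH1 (MDA5), DDX58 (RIG-I) and TLR3 recognise double-stranded or otherwise unusual RNA and lead to the release of interferons. The interferon receptors then act through JAK kinases on a complex that includes STAT2 and IRF9 and binds the interferon-stimulated response element (ISRE) in the promoters of effector genes. The effectors include the IFIT proteins, which bind foreign RNA, the OAS enzymes, which activate RNase L, the MX GTPases and ISG15, a ubiquitin-like modifier. HEK293T cells are known for a weak response to cytosolic DNA.

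The ISRE is the sequence that links these genes, and it is shown here for 6 genes on which the results turn and for ISG15, whose copies overlap. Promoter windows of 300 bases, 250 before and 50 after a transcript start of each gene, were taken from RefSeq (GRCh38.p14). For DDX60 that start lay inside the annotated gene, whose outer 5′ end is at 168325979 on chromosome 4. A window was found for 38 of the 46 genes, and none was used for the other 8. The ISRE core, searched as GAAANNGAA on either strand, was present for 26 of the 38 genes (68.4%), against 9.86% of all 27305 genes with a window. The gamma-activated site, searched as the palindrome TTCNNNGAA, was present for 10 (26.3%), against 9.38% of all genes. A match describes the letters and is not evidence of binding. Each stretch below is written 5′ to 3′ on the gene's strand, with the ISRE core in capitals.
IFIT1 (chr10:89392483-89392554, plus strand): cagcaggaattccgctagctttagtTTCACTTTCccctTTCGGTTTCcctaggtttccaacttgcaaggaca
IFIT3 (chr10:89327817-89327909, plus strand): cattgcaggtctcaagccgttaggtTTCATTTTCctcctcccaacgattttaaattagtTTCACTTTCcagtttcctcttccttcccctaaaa
IFI6 (chr1:27672252-27672373, minus strand): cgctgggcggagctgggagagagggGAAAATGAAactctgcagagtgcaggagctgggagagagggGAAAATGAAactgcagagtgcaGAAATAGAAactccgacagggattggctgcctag
SAMD9 (chr7:93118082-93118140, minus strand): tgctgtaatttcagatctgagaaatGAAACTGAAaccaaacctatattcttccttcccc
DDX60 (chr4:168318772-168318865, minus strand): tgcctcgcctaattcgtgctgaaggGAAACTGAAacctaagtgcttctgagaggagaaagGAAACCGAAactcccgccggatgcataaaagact
TLR3 (chr4:186069128-186069186, plus strand): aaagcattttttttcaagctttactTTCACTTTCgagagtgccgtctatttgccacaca
ISG15 (chr1:1013359-1013429, plus strand): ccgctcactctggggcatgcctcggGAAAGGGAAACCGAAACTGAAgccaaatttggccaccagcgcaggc

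In the stretches shown, IFIT1, IFIT3 and TLR3 carried the core on the opposite strand, seen here as its reverse complement. IFI6, SAMD9 and DDX60 carried it on the gene's own strand. IFIT3 had 2 windows with 5 matches in all, and the stretch shown is from 1 of them. IFI6 held 3 copies, DDX60 held 2 and SAMD9 held 1. The 3 copies of ISG15 overlapped in a single run. No core was found in the windows of IRF9, TRIM25, STAT2, IRF1 or ADAR, which also appear in the results.

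Libraries held between 9546826 and 15099153 estimated counts. The N2V7_S4 libraries stood apart: their residual SD was 0.43 log2 units, while the other groups had between 0.20 and 0.24 log2 units. Of the squared weight of the factor of unwanted variation, 63.3% was in library 2 of this group, 24.2% in library 3 and 8.89% in library 1. C9orf72, counted over all its transcripts, averaged 11.0 ± 0.77 CPM in ASO4 cells and 29.0 ± 1.31 CPM in UT cells (SD, n = 3 each), and the means of the other 16 groups lay between 24.4 and 29.9 CPM. Markers of the line were all detected, with KRT8, KRT18, VIM, INA, NEFL and NEFM summing to at least 1210 CPM in every library. Of 12 immune cell markers 3 were tested, and PTPRC, found on all white blood cells, had at most 1 count in any library. In bulk RNA, a change in the number of cells that respond and a change in RNA per cell cannot be told apart.

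The interferon-stimulated genes were expressed at low to moderate levels. Levels are given as CPM, counts relative to library size, after scaling of the libraries, and they compare libraries for 1 gene, not genes with each other, since gene length was not divided out. Across groups, the highest group mean was between 1.35-fold (DTX3L) and 6.44-fold (ISG20) above the lowest, and 17 of the 32 tested genes spanned more than 2-fold. The highest mean lay in WT_S7 for 12 of the 32 genes (37.5%, against 12.3% of all tested genes) and in WT_NTG for 6 (18.8%, against 4.24%). The lowest lay in UT for 7 genes (21.9%, against 10.1%).

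**Figure D1:**
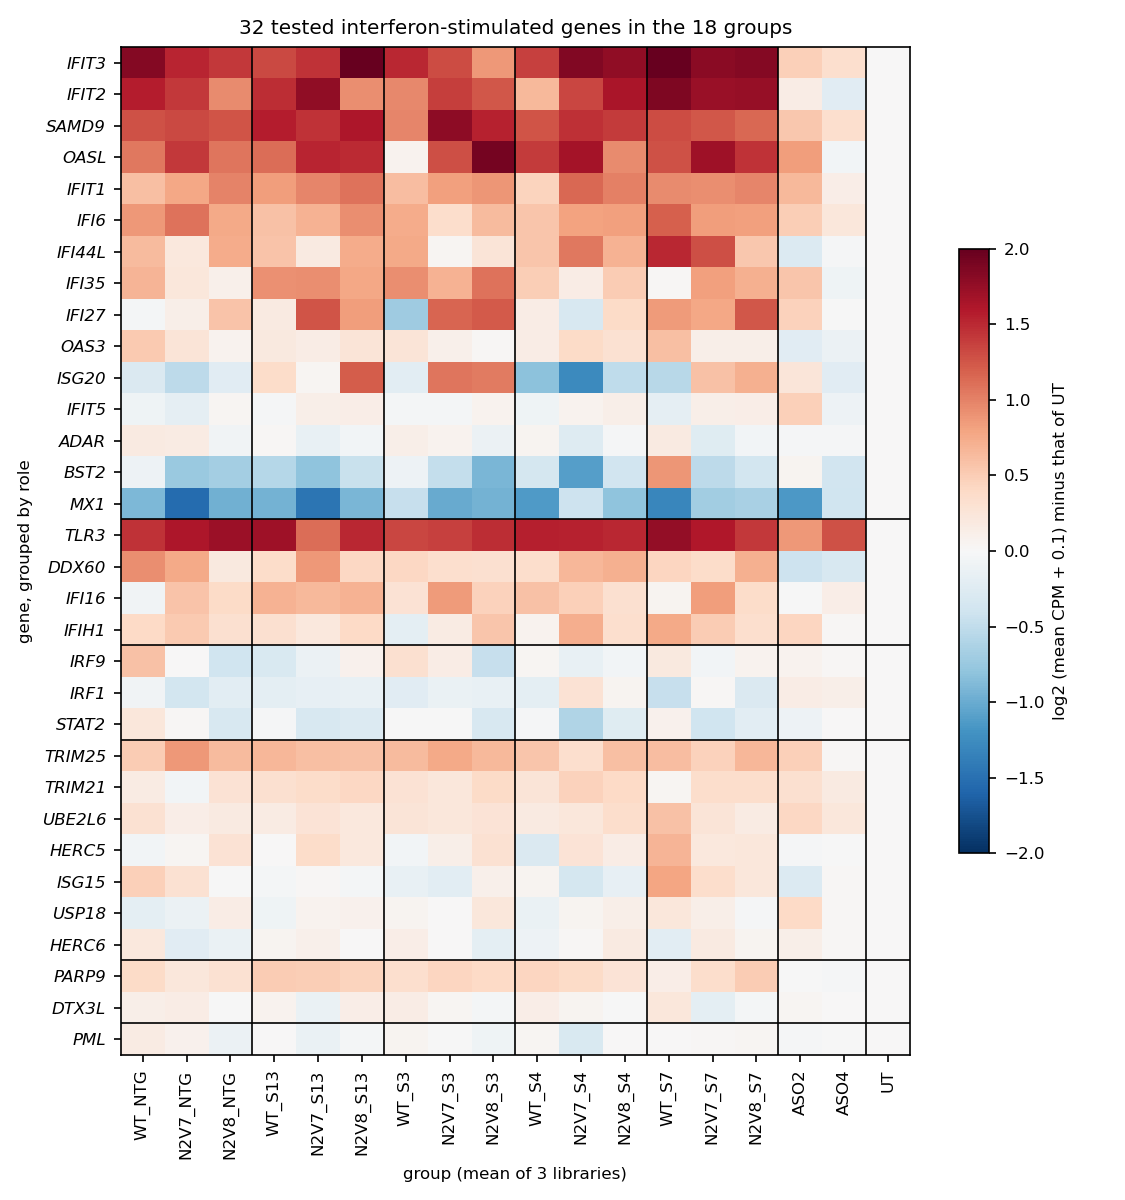
Mean expression of the 32 tested interferon-stimulated genes (rows, grouped by role) in the 18 groups (columns), as log2 of mean CPM plus 0.1 minus that of UT, with colours limited to 2 in either direction. IFIT3, IFIT2, SAMD9, TLR3, IFIT1, IFI6 and TRIM25 are red in all 15 plasmid groups, and MX1 is blue in all of them.

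The 14 genes left untested had between 5 and 163 counts over all 54 libraries and at most 10 counts in any 1 library. OAS2, an enzyme that makes the 2-5A messenger, had all of its 82 counts in the 45 plasmid libraries and 0 in the ASO2, ASO4 and UT libraries. IFI44 had 84 counts in plasmid libraries, 2 in ASO2 libraries and 0 in ASO4 and UT. OAS1 had 61 counts in plasmid libraries and 0, 1 and 1 in the UT libraries. The means per plasmid library were 1.82 counts for OAS2, 1.87 for IFI44 and 1.36 for OAS1, and these differences were not tested. DHX58 (LGP2), which tunes signalling by the RNA sensors, had a mean of 3.11 counts per plasmid library, against 2, 3 and 1 in the UT libraries. IRF7, the factor that amplifies interferon production, had a mean of 3.18, against 1, 5 and 2. Totals over 45 plasmid and 3 UT libraries cannot be compared directly. CMPK2 (151 counts in all) had a mean of 2.84 per plasmid library, against 0, 4 and 4 in the UT libraries. PARP12 (137 counts in all), RSAD2 (44), SP100 (38), DDX60L (20), SAMD9L (15), XAF1 (11), MX2 (9) and PARP14 (5) were the others.

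The comparison of each NTG group with UT takes plasmid, transfection reagent and effector together, in the absence of a target. In WT_NTG cells, 11 of the 32 tested genes were higher than in UT and 0 were lower (34.4%, against 5.10% of all tested genes called in either direction, 2.71% higher and 2.39% lower). In N2V7_NTG cells, 10 were higher and 2 lower (37.5%, against 20.8%, of which 10.9% higher and 9.95% lower), and in N2V8_NTG cells 6 were higher and 1 lower (21.9%, against 30.0%, of which 15.3% higher and 14.7% lower). A call required a log2 fold change over 0.32 in size and an adjusted p under 0.05. The share of genes called in either direction was thus above that of all genes for WT and N2V7 and below it for N2V8. By direction, the 6 of 32 genes higher with N2V8 were slightly above the 15.3% of all genes. The 1 lower gene was below the 14.7%. The median log2 fold change of the tested genes was 0.34 for WT, 0.19 for N2V7 and 0.19 for N2V8, beside a median of 0.00 over all genes for each. The low-count filter bears on these counts. In 10 of the 32 genes, among them IFIT2, IFIT3, SAMD9 and TLR3, fewer than 3 UT libraries reached the filter's floor of 0.868 CPM. These genes were tested because libraries of other groups reached it. MX1, also among the 10, was highest in UT, where 2 libraries reached the floor. The 10 genes gave 4 of the 11 rises for WT, 5 of the 10 for N2V7 and 3 of the 6 for N2V8. Among the 22 genes with all 3 UT libraries at or over the floor, 7, 5 and 3 were higher for WT, N2V7 and N2V8. In the same order, 0, 1 and 1 of the 22 were lower. Since the genes were chosen with earlier results of these data known, the shares describe this set and are not an independent test.

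**Figure D2:**
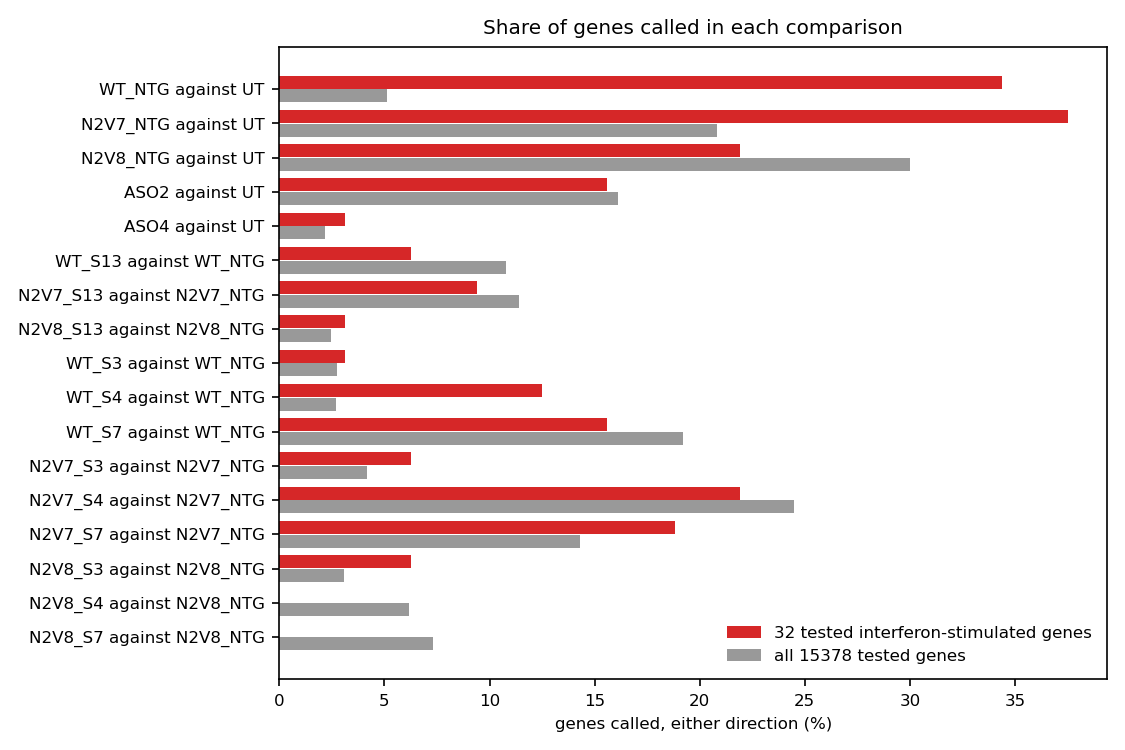
Share of genes called in either direction in each comparison, for the 32 tested interferon-stimulated genes (red) and for all tested genes (grey). The shares were 34.4% and 5.10% for WT_NTG against UT and 21.9% and 30.0% for N2V8_NTG against UT.

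IFIT1, which binds RNA lacking the cap marks of the host, had 8.98, 10.0 and 7.12 CPM in WT_NTG libraries, 9.69, 9.22 and 10.5 CPM in N2V7_NTG libraries and 11.9, 11.6 and 11.1 CPM in N2V8_NTG libraries, against 6.12, 5.59 and 5.45 CPM in UT libraries. No NTG library overlapped UT. The log2 fold changes were 0.60 ± 0.14 (SE, adjusted p = 0.000779) for WT, 0.78 ± 0.14 (adjusted p = 1.61e-05) for N2V7 and 1.01 ± 0.14 (adjusted p = 5.79e-08) for N2V8.

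IFIT3, a partner that stabilises IFIT1 on RNA, had 2.10, 3.74 and 2.14 CPM in WT_NTG, 2.46, 1.40 and 2.48 CPM in N2V7_NTG and 2.29, 0.986 and 2.62 CPM in N2V8_NTG libraries, against 0.548, 0.766 and 0.707 CPM in UT libraries. The groups did not overlap, although library 2 of N2V8_NTG came close to UT. Its log2 fold changes were 1.95 ± 0.34 (adjusted p = 6.93e-06) for WT, 1.64 ± 0.36 (adjusted p = 0.000216) for N2V7 and 1.53 ± 0.36 (adjusted p = 0.000678) for N2V8. IFIT2, of the same gene cluster on chromosome 10, had 2.26, 1.75 and 1.85 CPM in WT_NTG, 1.31, 1.68 and 2.23 CPM in N2V7_NTG and 1.02, 1.18 and 1.46 CPM in N2V8_NTG libraries, against 0.548, 0.613 and 0.606 CPM in UT. It rose by 1.71 ± 0.38 log2 units (adjusted p = 0.00034) with WT and 1.55 ± 0.39 (adjusted p = 0.00155) with N2V7. With N2V8 its difference of 1.03 ± 0.42 (adjusted p = 0.0557) missed the threshold, although its libraries did not overlap UT. IFIT5, the fourth member of the cluster, was not called in any NTG group.

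IFI6, a small membrane protein that restricts flaviviruses, had 9.38, 10.6 and 7.76 CPM in WT_NTG, 9.04, 7.64 and 15.6 CPM in N2V7_NTG and 9.01, 8.28 and 8.45 CPM in N2V8_NTG libraries, against 4.48, 5.13 and 5.45 CPM in UT. All NTG libraries were above UT, and library 3 of N2V7_NTG was the highest. The log2 fold changes were 0.88 ± 0.20 (adjusted p = 0.000566) for WT, 1.11 ± 0.20 (adjusted p = 1.72e-05) for N2V7 and 0.78 ± 0.21 (adjusted p = 0.00316) for N2V8. SAMD9, an antiviral protein that restricts poxviruses, lay between 1.17 and 1.48 CPM in the NTG libraries, against 0.548, 0.383 and 0.505 CPM in UT. It rose by 1.45 ± 0.40 (adjusted p = 0.00341) with WT, 1.48 ± 0.40 (adjusted p = 0.00293) with N2V7 and 1.41 ± 0.41 (adjusted p = 0.00556) with N2V8 on the log2 scale, with no overlap.

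Among the sensors, TLR3, which detects double-stranded RNA in endosomes, had 1.46, 2.46 and 0.855 CPM in WT_NTG, 1.97, 1.21 and 2.23 CPM in N2V7_NTG and 1.78, 2.27 and 1.75 CPM in N2V8_NTG libraries, against 0.548, 0.306 and 0.707 CPM in UT. The spread within WT_NTG was wide, and its library 3 was close to UT. The log2 fold changes were 1.62 ± 0.42 (adjusted p = 0.00165), 1.82 ± 0.41 (adjusted p = 0.00036) and 1.91 ± 0.41 (adjusted p = 0.000197) for WT, N2V7 and N2V8. DDX60, a helicase that promotes RIG-I signalling, had 5.50, 8.50 and 5.77 CPM in WT_NTG, 5.83, 5.50 and 6.12 CPM in N2V7_NTG and 3.40, 4.14 and 4.27 CPM in N2V8_NTG libraries, against 2.74, 3.75 and 3.73 CPM in UT. It rose by 0.94 ± 0.20 (adjusted p = 0.000201) with WT and 0.77 ± 0.21 (adjusted p = 0.00312) with N2V7, and with N2V8, whose libraries overlapped UT, the difference was 0.20 ± 0.22 (adjusted p = 0.549).

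IFIH1 had 3.40, 5.17 and 4.20 CPM in WT_NTG, 5.50, 2.79 and 5.62 CPM in N2V7_NTG and 3.82, 4.34 and 3.88 CPM in N2V8_NTG libraries, against 2.92, 3.68 and 3.03 CPM in UT. WT_NTG and N2V7_NTG overlapped UT. It was called with N2V7 (0.53 ± 0.21, adjusted p = 0.0468), and this call ended when any of UT library 1 or 3 or N2V7_NTG library 1 or 3 was left out (0.38 to 0.49). The differences with WT (0.40 ± 0.21, adjusted p = 0.154) and N2V8 (0.31 ± 0.22, adjusted p = 0.299) missed the threshold.

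TRIM25, the ubiquitin ligase that acts on RIG-I, was the most precisely measured rise. It had 41.3, 41.1 and 39.3 CPM in WT_NTG, 49.5, 54.9 and 51.4 CPM in N2V7_NTG and 42.7, 44.5 and 46.0 CPM in N2V8_NTG libraries, against 29.2, 28.9 and 27.3 CPM in UT. The groups were far apart relative to their spread. The log2 fold changes were 0.51 ± 0.08 (adjusted p = 8.2e-07) for WT, 0.86 ± 0.08 (adjusted p = 2.59e-13) for N2V7 and 0.64 ± 0.08 (adjusted p = 4.41e-09) for N2V8.

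**Figure D3:**
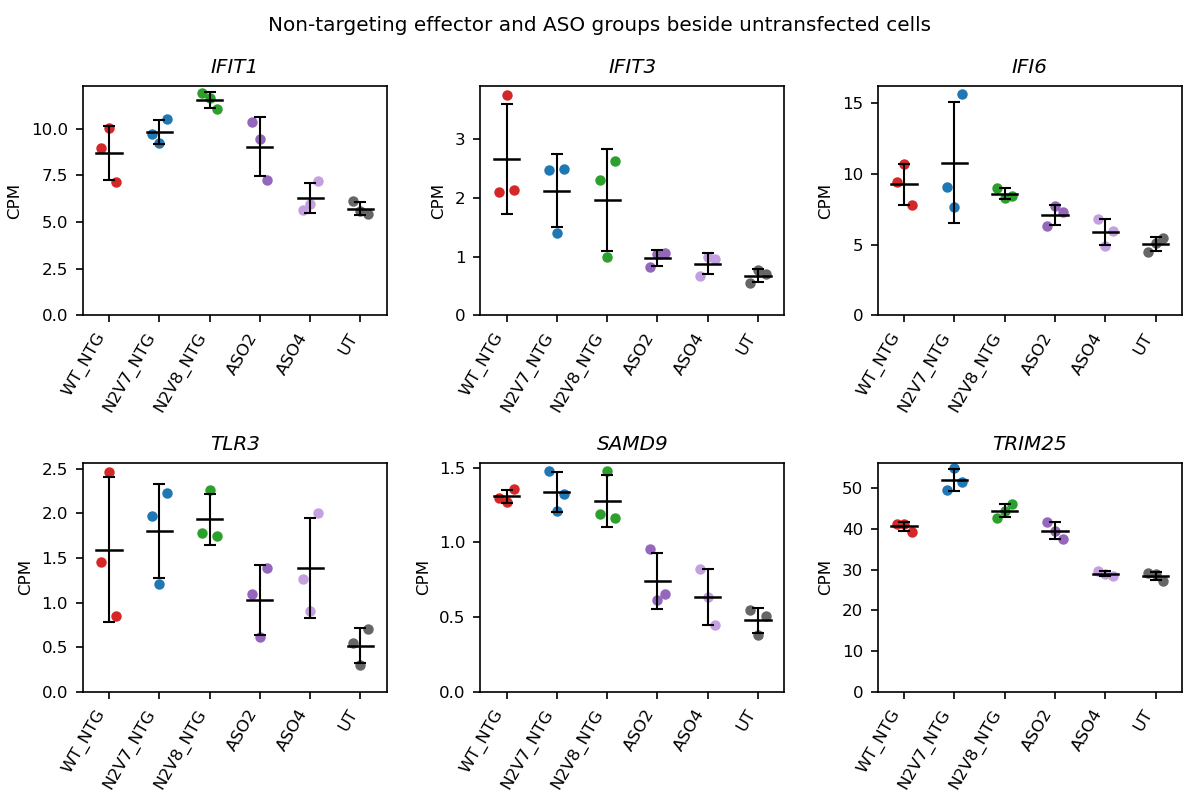
CPM of IFIT1, IFIT3, IFI6, TLR3, SAMD9 and TRIM25 in each library of the 3 NTG groups, the ASO groups and UT (points), with the mean and SD of 3 libraries (bars). All 9 NTG libraries lie above all 3 UT libraries in each panel.

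Among the transcription factors, IRF9, the DNA-binding part of the complex with STAT2, had 5.99, 7.55 and 7.83 CPM in WT_NTG, 5.59, 3.35 and 5.29 CPM in N2V7_NTG and 3.74, 3.35 and 3.50 CPM in N2V8_NTG libraries, against 5.30, 3.37 and 5.45 CPM in UT, where library 2 was low. It was higher in WT_NTG by 0.62 ± 0.20 log2 units (adjusted p = 0.0135), and the call ended without UT library 2 or WT_NTG library 3 (0.41 to 0.54). The differences were 0.04 ± 0.21 with N2V7 (adjusted p = 0.921) and -0.39 ± 0.22 with N2V8 (adjusted p = 0.189). STAT2 had 39.0, 44.1 and 47.7 CPM in WT_NTG, 42.1, 31.5 and 40.2 CPM in N2V7_NTG and 29.8, 29.9 and 29.4 CPM in N2V8_NTG libraries, against 33.8, 37.99 and 39.8 CPM in UT. N2V8_NTG lay below UT in every library, whereas the others overlapped it. Its fall with N2V8 (-0.32 ± 0.09, adjusted p = 0.0034) just exceeded the fold threshold and ended without UT library 2 or 3, N2V8_NTG library 3 or N2V7_S4 library 2 (-0.32 to -0.28), and the difference of 0.23 ± 0.08 with WT (adjusted p = 0.0302) was below that threshold. IRF1, which responds to interferon gamma, had 7.06, 9.31 and 9.26 CPM in N2V7_NTG libraries, against 11.1, 11.6 and 10.4 CPM in UT. Its fall of 0.37 log2 units (-0.37 ± 0.13, adjusted p = 0.0243) ended without UT library 1 or 2 or N2V7_NTG library 1 (-0.37 to -0.25). In WT_NTG and N2V8_NTG, IRF1 had log2 differences of -0.08 ± 0.13 and -0.23 ± 0.13.

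Among classical genes of the response, ISG15 and ADAR were called in no NTG group, and MX1 was called only with N2V7, as lower. ISG15 had 2.02, 3.42 and 1.92 CPM in WT_NTG, 1.97, 2.24 and 2.31 CPM in N2V7_NTG and 1.87, 1.97 and 1.36 CPM in N2V8_NTG libraries, against 2.19, 0.996 and 2.02 CPM in UT. Every NTG group overlapped UT, and the 95% interval of the log2 difference ran between -0.05 and 1.09 for WT, between -0.24 and 0.94 for N2V7 and between -0.58 and 0.64 for N2V8. MX1, a GTPase that blocks influenza virus, ran the other way, with 0.243, 0.874 and 0.570 CPM in WT_NTG, 0, 0.559 and 0.413 CPM in N2V7_NTG and 0.425, 0.493 and 0.680 CPM in N2V8_NTG libraries, against 1.64, 1.15 and 0.606 CPM in UT. It was called lower with N2V7 (-1.82 ± 0.55, adjusted p = 0.00794), a call that ended without UT library 1 or N2V7_NTG library 1 (-1.47 to -1.22). With WT (-1.01 ± 0.49, adjusted p = 0.114) and N2V8 (-1.10 ± 0.51, adjusted p = 0.0987) the difference missed the threshold. ADAR, which edits double-stranded RNA, had 385, 419 and 403 CPM in WT_NTG, 412, 383 and 390 CPM in N2V7_NTG and 333, 339 and 336 CPM in N2V8_NTG libraries, against 338, 367 and 356 CPM in UT. Its differences with WT (0.19 ± 0.04, adjusted p = 0.000474) and N2V7 (0.16 ± 0.04, adjusted p = 0.00274) were precise and below the fold threshold, and that with N2V8 was -0.07 ± 0.04 (adjusted p = 0.206).

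The remaining calls were of OAS3, PARP9 and OASL. OAS3 rose with WT by 0.53 ± 0.14 (adjusted p = 0.00296), at 17.3, 19.1 and 18.2 CPM in WT_NTG, against 11.2, 13.1 and 13.4 CPM in UT. PARP9, an ADP-ribosyltransferase that works with DTX3L, rose with WT by 0.38 ± 0.14 (adjusted p = 0.0329), and this ended without any library but WT_NTG library 3 (0.34 to 0.40). OASL, a catalytically inactive relative of the OAS enzymes, rose with N2V7 by 1.80 ± 0.67 (adjusted p = 0.0347) at under 1 CPM, and this ended without UT library 1 or 3 or N2V7_NTG library 2 or 3 (1.27 to 2.02). The other 16 tested genes were called in no comparison of an NTG group with UT.

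The rises of IFIT1, IFIT2, IFIT3, IFI6, TLR3 and TRIM25 extended to every group that received an effector plasmid. For these 6 of the 32 genes (18.8%, against 1.91% of all tested genes), each of the 45 plasmid libraries was above each of the 3 UT libraries, whatever the effector and crRNA. IFIT1 ranged over 7.12, 11.1 and 15.1 CPM (lowest, median and highest) in the plasmid libraries, against 5.45 to 6.12 CPM in UT. TRIM25 ranged over 30.8, 43.1 and 54.9 CPM, against 27.3 to 29.2 CPM in UT. For IFI6 and IFIT2 the margin was narrow. The lowest plasmid library of IFI6 had 5.64 CPM, against 5.45 CPM in the highest UT library. For IFIT2 these were 0.646 and 0.613 CPM, with 8 counts in each. SAMD9 was above all UT libraries in 44 of the 45, PARP9 in 43 and OASL in 40. None of the 32 genes lay below UT in all 45, as 2.02% of all tested genes did. BST2 was below all UT libraries in 33 of the 45, MX1 and IRF1 in 27 each and STAT2 in 26. Because IFIT2, IFIT3 and TLR3 did not reach the filter's floor in UT, their part in this count is a description.

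Genes of the pathway outside the set were examined from lists chosen for their roles. Of 22 interferon genes none could be tested, 11 had no count in any library and the highest count in any library was 2. IFNB1, the interferon that fibroblast-like cells release first, had 1 count over the 54 libraries. The counts of each list stand beside 2.71%, 10.9% and 15.3% of all tested genes called higher and 2.39%, 9.95% and 14.7% called lower in WT_NTG, N2V7_NTG and N2V8_NTG. Of 18 receptor and JAK-STAT genes, 17 were tested, and 0, 1 and 1 were higher and 0, 1 and 2 lower in WT_NTG, N2V7_NTG and N2V8_NTG than in UT. IFNLR1, a receptor for lambda interferons, fell by 0.49 and 0.40 log2 units with N2V7 and N2V8.

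Of 25 upstream sensing genes, 18 were tested, and 1 was higher in each NTG group while 0, 2 and 3 were lower for WT, N2V7 and N2V8. DDX58 (RIG-I) had 3.56, 4.69 and 2.56 CPM in WT_NTG libraries, against 1.92, 2.68 and 1.82 CPM in UT, a rise of 0.73 ± 0.25 log2 units with WT that overlapped in 1 library. CGAS, the DNA sensor, had at most 4 counts in any library. Of 50 further interferon-stimulated genes, 40 were tested, and 6, 7 and 11 were higher and 0, 7 and 8 lower, with medians of 0.13, 0.10 and 0.00 log2 units. IFITM3 and IFITM2, membrane proteins that block virus entry, rose with each effector, and with N2V8 GBP1, a GTPase that attacks pathogen vacuoles, rose by 2.13 log2 units. IFITM2 had 10.8, 8.66 and 8.97 CPM in WT_NTG, 10.0, 9.13 and 11.2 CPM in N2V7_NTG and 11.8, 9.86 and 11.9 CPM in N2V8_NTG libraries, against 4.84, 5.97 and 4.34 CPM in UT. There was no overlap, and the rises were 0.89 ± 0.15, 0.98 ± 0.15 and 1.13 ± 0.15 log2 units for WT, N2V7 and N2V8. The largest falls were of SLFN5 with N2V7 (-0.86 ± 0.13) and HELZ2 with N2V8 (-0.998 ± 0.157).

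Antigen presentation genes, which answer more to interferon gamma, were higher in 2, 7 and 7 of 16 tested genes and lower in 0, 0 and 1, with medians of 0.24, 0.28 and 0.25 log2 units beside 0.00 over all genes. PSME2, a proteasome activator subunit, had 34.4, 31.6 and 28.3 CPM in WT_NTG, 34.7, 39.4 and 39.6 CPM in N2V7_NTG and 41.7, 45.4 and 44.96 CPM in N2V8_NTG libraries, against 24.9, 19.1 and 20.5 CPM in UT. Its libraries did not overlap UT, and it rose by 0.55 ± 0.09, 0.82 ± 0.08 and 1.04 ± 0.08 log2 units. NLRC5, the activator of class I genes, rose by 1.39 ± 0.41 with N2V7 and 1.40 ± 0.41 with N2V8. Among 15 tested NF-kB targets, 3, 2 and 3 were higher and 0, 3 and 1 lower. CCL5, a chemokine also driven by interferon regulatory factors, had 0.647, 1.11 and 1.57 CPM in WT_NTG, 0.575, 1.12 and 0.992 CPM in N2V7_NTG and 0.680, 1.28 and 0.874 CPM in N2V8_NTG libraries, against 0.0914, 0.0766 and 0.202 CPM in UT, and it did not overlap. It rose by 3.13 ± 0.64, 2.80 ± 0.67 and 2.88 ± 0.67 log2 units. Every UT library of CCL5 was under the filter's floor of 0.868 CPM, so that it was tested because other groups were higher. Of 10 tested genes of the 2-5A and PKR branch, PPP1R15A, which reverses the block on translation, fell by 0.83 and 0.86 log2 units with N2V7 and N2V8. The summed immune cell markers, mostly NCAM1, ran the other way and were between 92.4 and 104 CPM in WT_NTG, 77.1 and 87.2 CPM in N2V7_NTG and 65.3 and 73.8 CPM in N2V8_NTG libraries, against 99.5 to 112 CPM in UT. The summed fibroblast and endothelial markers were between 27.6 and 29.2 CPM in WT_NTG, 21.4 and 27.1 CPM in N2V7_NTG and 17.2 and 20.9 CPM in N2V8_NTG libraries, against 23.7 to 25.2 CPM in UT, and COL1A1 and PDGFRA were called lower with N2V8. The line marker VIM fell by 0.54 and 0.52 log2 units with N2V7 and N2V8. The share of counts from ribosomal RNA was 1.71% to 3.52% in the NTG libraries, against 2.78% to 3.76% in UT. The part of these markers and of ribosomal RNA in the results was not tested.

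**Figure D4:**
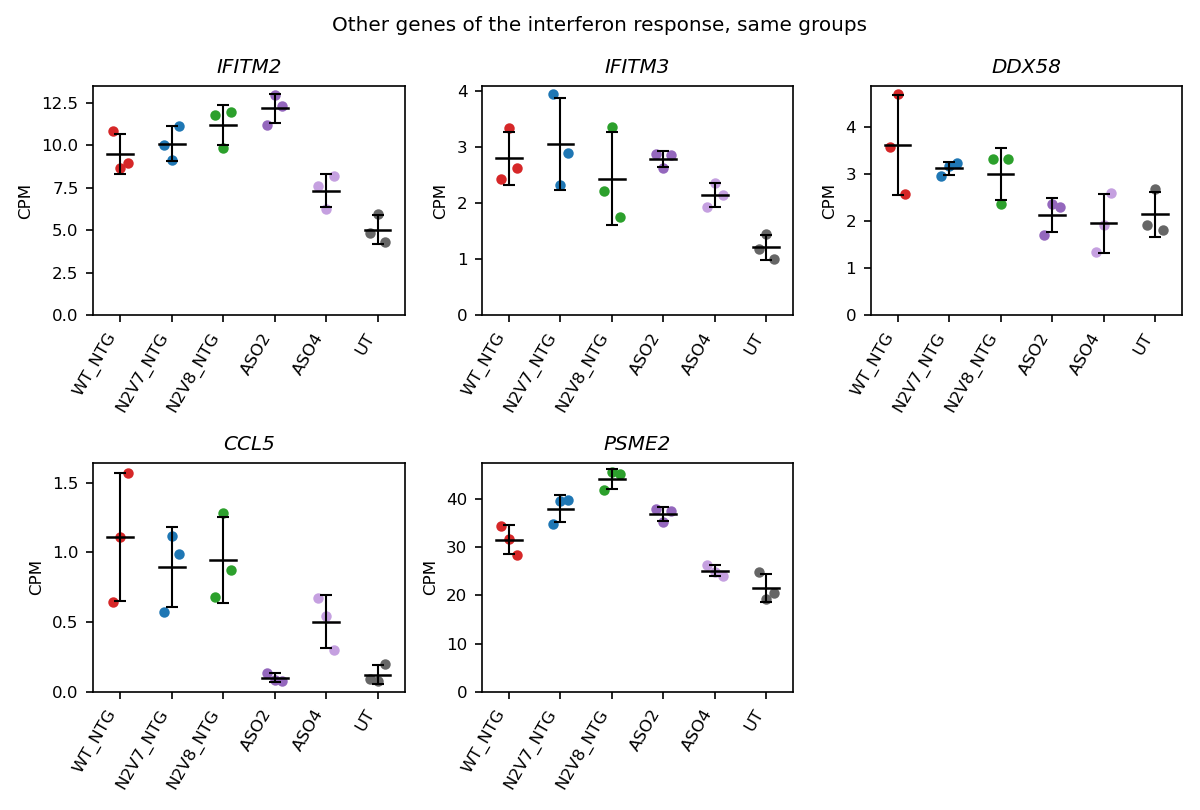
CPM of IFITM2, IFITM3, DDX58, CCL5 and PSME2 in each library of the 3 NTG groups, the ASO groups and UT (points), with the mean and SD of 3 libraries (bars). IFITM2 and CCL5 lie above all UT libraries in every NTG library, and CCL5 in ASO2 libraries lies within the UT range. In UT, CCL5 was under the floor of the low-count filter in every library.

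The antisense oligonucleotides gave fewer calls. In ASO2 cells 5 of the 32 genes were higher than in UT and 0 lower (15.6%, against 16.1% of all tested genes, 7.07% higher and 9.02% lower), and in ASO4 cells 1 was higher (3.12%, against 2.15%, 0.930% higher and 1.22% lower). Both shares in either direction were close to those of all genes. By direction, all 5 ASO2 calls were rises, above the 7.07% of all genes called higher, and 0 were falls, below the 9.02%. With ASO2, IFIT1 had 10.3, 9.46 and 7.27 CPM, against 6.12, 5.59 and 5.45 CPM in UT, and rose by 0.66 ± 0.14 log2 units (adjusted p = 0.000443). TRIM25 had 41.7, 39.4 and 37.6 CPM in ASO2 libraries, against 29.2, 28.9 and 27.3 CPM in UT, and rose by 0.48 ± 0.08 (adjusted p = 8.56e-06). Neither overlapped UT. IFIT5 had 40.3, 38.4 and 38.6 CPM in ASO2 libraries, against 31.6, 27.96 and 24.3 CPM in UT (0.48 ± 0.09, adjusted p = 2.55e-05). USP18, the protease that removes ISG15, had 29.9, 27.9 and 30.1 CPM in ASO2 libraries, against 22.4, 20.7 and 23.3 CPM in UT (0.41 ± 0.09, adjusted p = 0.000512). These also did not overlap. UBE2L6, which attaches ISG15, had 19.1, 16.9 and 19.4 CPM in ASO2 libraries, against 14.9, 13.7 and 12.9 CPM in UT (0.42 ± 0.12, adjusted p = 0.00945), and its call ended without UT library 3 (0.37).

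IFIT2, IFIT3 and SAMD9 were not called with ASO2. IFIT2 had 0.205, 1.05 and 0.735 CPM in ASO2 libraries, against 0.548, 0.613 and 0.606 CPM in UT, and the groups overlapped. With ASO4, IFIT1 had 5.66, 5.99 and 7.21 CPM and overlapped UT. The single ASO4 call was TLR3, with 1.27, 0.908 and 2.01 CPM, against 0.548, 0.306 and 0.707 CPM in UT (1.46 ± 0.42, adjusted p = 0.00998). It ended without UT library 2 or ASO4 library 3 (1.10 to 1.16). Outside the set, IFITM2 had 11.2, 13.0 and 12.3 CPM in ASO2 libraries and 7.60, 6.27 and 8.17 CPM in ASO4 libraries, against 4.84, 5.97 and 4.34 CPM in UT, and rose by 1.247 ± 0.141 and 0.53 ± 0.15 log2 units. IRF3, the factor that starts interferon transcription, and TRAF3, which links sensors to it, fell by 0.71 and 0.72 log2 units with ASO2.

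The comparison of crRNA-13 with the non-targeting crRNA asks what targeting added within each effector. In WT_S13 cells 0 of the 32 genes were higher and 2 lower than in WT_NTG (6.25%, against 10.8% of all tested genes, 6.53% higher and 4.24% lower). In N2V7_S13 cells 2 were higher and 1 lower (9.38%, against 11.4%, 3.67% higher and 7.76% lower), and in N2V8_S13 cells 1 was higher and 0 lower (3.12%, against 2.44%, 1.72% higher and 0.715% lower). These shares were below or close to those of all genes. The medians of the 32 genes were -0.06, 0.11 and 0.11 log2 units for WT, N2V7 and N2V8, beside 0.00, 0.01 and 0.00 over all genes.

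With WT, IRF9 had 3.84, 3.19 and 4.34 CPM in WT_S13 libraries, against 5.99, 7.55 and 7.83 CPM in WT_NTG libraries. The groups did not overlap, and IRF9 fell by 0.91 log2 units (-0.91 ± 0.20, adjusted p = 0.000682). DDX60 had 5.19, 4.66 and 3.49 CPM in WT_S13 libraries, against 5.50, 8.50 and 5.77 CPM in WT_NTG, again with no overlap (-0.56 ± 0.19, adjusted p = 0.0324). The DDX60 call ended without WT_NTG library 2 or WT_S13 library 2 or 3 (-0.60 to -0.34). STAT2 had 33.5, 38.1 and 38.3 CPM in WT_S13 libraries, against 39.0, 44.1 and 47.7 CPM in WT_NTG, a difference below the fold threshold (-0.26 ± 0.08, adjusted p = 0.0236).

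With N2V7, STAT2 had 28.7, 31.97 and 28.8 CPM in N2V7_S13 libraries, against 42.1, 31.5 and 40.2 CPM in N2V7_NTG, where library 2 overlapped. It fell by 0.35 log2 units (-0.35 ± 0.09, adjusted p = 0.00256), a call that ended without N2V7_NTG library 1 or 3 (-0.31 to -0.26). HERC5, the ligase that joins ISG15 to new proteins, had 25.5, 27.9 and 33.6 CPM in N2V7_S13 libraries, against 22.3, 23.1 and 24.0 CPM in N2V7_NTG (0.33 ± 0.08, adjusted p = 0.00358). The groups did not overlap, and the call ended without N2V7_NTG library 1 or N2V7_S13 library 3 (0.20 to 0.31). IFI27, a mitochondrial protein induced by type I interferon, had 1.05, 1.53 and 0.966 CPM in N2V7_S13 libraries, against 0.411, 0.373 and 0.661 CPM in N2V7_NTG (1.26 ± 0.44, adjusted p = 0.0351). It did not overlap, but ended without N2V7_NTG library 1 or 2 or N2V7_S13 library 2 (1.05 to 1.16). ADAR had 311, 314 and 327 CPM in N2V7_S13 libraries, against 412, 383 and 390 CPM in N2V7_NTG, a precise difference just below the fold threshold (-0.32 ± 0.04, adjusted p = 2.02e-07).

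With N2V8, ISG20, an exonuclease that degrades viral RNA, had 3.22, 2.69 and 4.33 CPM in N2V8_S13 libraries, against 0.850, 1.97 and 0.777 CPM in N2V8_NTG. The groups did not overlap, and it rose by 1.51 ± 0.46 log2 units (adjusted p = 0.0152), a call that ended without N2V8_NTG library 1 or 3 or N2V8_S13 library 3 (1.28 to 1.31). IFIT1 was not called with crRNA-13 for any effector, with differences of 0.25, 0.20 and 0.09 log2 units for WT, N2V7 and N2V8. ISG15 was not called either (-0.53, -0.30 and -0.03). The share of counts from ribosomal RNA was 1.79% to 2.30% in WT_S13, 4.17% to 4.42% in N2V7_S13 and 3.98% to 4.96% in N2V8_S13 libraries, against 1.71% to 3.52% over the NTG libraries, and its part in these results was not tested.

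**Figure D5:**
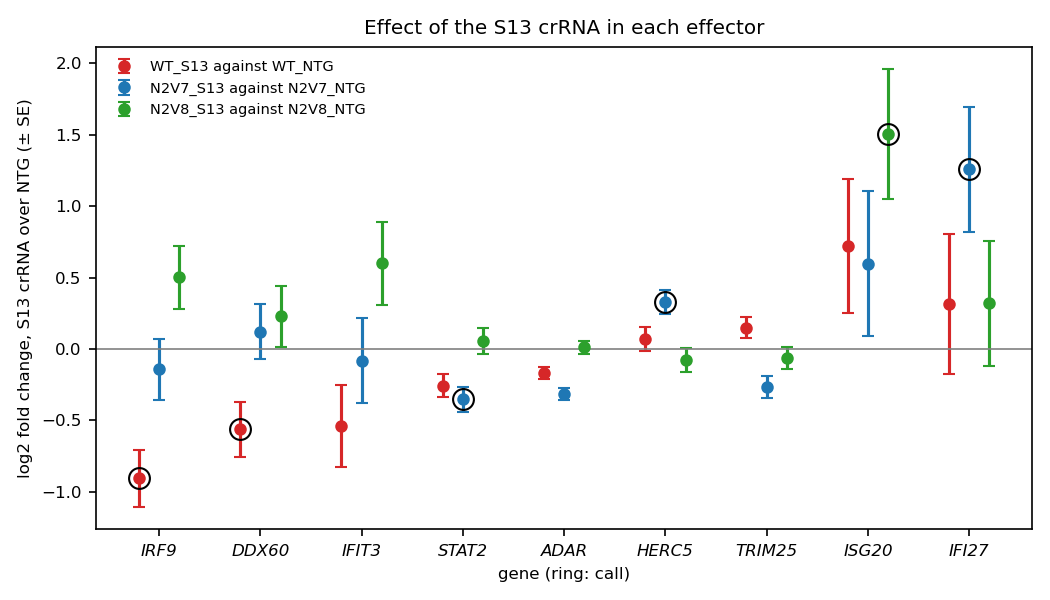
Log2 fold change of crRNA-13 against the non-targeting crRNA for 9 interferon-stimulated genes with each effector (points, with standard errors). Rings mark called genes, and IRF9 lies at -0.91 with WT (called) and at 0.50 with N2V8 (not called).

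The difference in the crRNA-13 effect between effectors was tested directly. Between N2V8 and WT 3 of the 32 genes differed (9.38%, against 18.3% of all tested genes), between N2V7 and WT 2 (6.25%, against 14.9%) and between N2V8 and N2V7 4 (12.5%, against 14.2%), so that no pair stood above the share of all genes. IRF9 differed most: the effect was 0.50 ± 0.22 with N2V8 and -0.91 ± 0.20 with WT, a difference of 1.41 ± 0.30 (adjusted p = 0.000365). N2V8 libraries had 4.62, 4.79 and 5.68 CPM with crRNA-13, against 3.74, 3.35 and 3.50 CPM with NTG, with no overlap. This rise ran opposite to WT but was not called on its own. The NTG groups already differed, with means of 7.12 CPM in WT_NTG and 3.53 CPM in N2V8_NTG, beside 4.71 CPM in UT. The crRNA-13 groups had means of 3.79 CPM in WT_S13 and 5.03 CPM in N2V8_S13. TRIM25 differed by -0.42 ± 0.11 between N2V7 and WT (adjusted p = 0.00308). Both of these differences between effectors held in every fit that left out a library of the compared groups.

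With no target, effectors were compared through their NTG groups. N2V8_NTG had 3 genes higher and 5 lower than WT_NTG (25%, against 23.8% of all tested genes), N2V7_NTG 1 higher and 2 lower than WT_NTG (9.38%, against 10.7%) and N2V8_NTG 0 higher and 2 lower than N2V7_NTG (6.25%, against 6.35%). These shares were close to those of all genes. STAT2 (-0.56 ± 0.09, adjusted p = 1.22e-06) and IRF9 (-1.01 ± 0.21, adjusted p = 0.000152) were lower in N2V8_NTG than in WT_NTG with no overlap. Both calls held without any 1 library of these groups. DDX60 was lower by 0.74 log2 units (-0.74 ± 0.20, adjusted p = 0.00373), and this ended without WT_NTG library 2 (-0.52). OAS3 had 13.1, 13.998 and 12.6 CPM in N2V8_NTG, against 17.3, 19.1 and 18.2 CPM in WT_NTG (-0.46 ± 0.14, adjusted p = 0.0129), and this ended without N2V8_NTG library 3 (-0.43). IFIT1 ran the other way and was higher in N2V8_NTG than in WT_NTG (0.41 ± 0.13, adjusted p = 0.0142), a call that ended without WT_NTG library 3 (0.28). TRIM25 was higher in N2V7_NTG than in WT_NTG (0.36 ± 0.08, adjusted p = 0.000205), and fell below the fold threshold without N2V7_NTG library 2 (0.32).

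The 3 further crRNAs gave 27 calls in 9 comparisons with the NTG group of the same effector. For WT, 1 gene was called with S3 (3.12%, against 2.74% of all tested genes), 4 with S4 (12.5%, against 2.68%) and 5 with S7 (15.6%, against 19.2%). All 4 genes called with S4 were lower, where 0.663% of all tested genes were called lower, but none of the 4 was called with adjustment within the comparison (adjusted p between 0.0991 and 0.15) or without WT_S4 library 3. DDX60 alone was still called without the factor or with DESeq2. IFIT2 had 1.15, 1.16 and 0.646 CPM in WT_S4 libraries, against 2.26, 1.75 and 1.85 CPM in WT_NTG (-0.99 ± 0.35, adjusted p = 0.04). DDX60 (-0.59 ± 0.20, adjusted p = 0.0272), IRF9 (-0.56 ± 0.20, adjusted p = 0.0375) and OAS3 (-0.39 ± 0.14, adjusted p = 0.0488) were the others. None of the 4 overlapped WT_NTG, yet each call ended when certain libraries were left out. For IFIT2 these were WT_NTG library 1 or 3 or WT_S4 library 3 (-1.03 to -0.75), and for DDX60 WT_NTG library 2 or WT_S4 library 3 (-0.46 to -0.37). For IRF9 they were WT_NTG library 2 or 3 or WT_S4 library 1 or 3 (-0.53 to -0.48), and for OAS3 any of the 6 libraries (-0.43 to -0.35).

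In WT_S7 cells, BST2 (tetherin), which holds budding virus at the cell surface, had 4.93, 5.11 and 4.16 CPM, against 1.94, 2.94 and 2.14 CPM in WT_NTG, and rose by 1.01 ± 0.28 (adjusted p = 0.00596). HERC5 had 36.8, 35.7 and 35.5 CPM in WT_S7 libraries, against 21.8, 21.3 and 21.7 CPM in WT_NTG (0.74 ± 0.08, adjusted p = 5.48e-10). Both were far from overlapping. USP18 rose by 0.41 ± 0.09 (adjusted p = 0.000661), and these 3 calls held in every fit that left out a library of the compared groups. HERC6 (-0.41 ± 0.12) and IRF1 (-0.39 ± 0.13) were lower. The HERC6 call ended without library 2 of either group (-0.31 to -0.28), and that of IRF1 without any library but WT_NTG library 3 (-0.41 to -0.36). In WT_S3 cells IFIH1 had 2.81, 2.67 and 2.87 CPM, against 3.40, 5.17 and 4.20 CPM in WT_NTG (-0.61 ± 0.21, adjusted p = 0.0377), and this ended without any library but WT_NTG library 1 (-0.63 to -0.45).

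For N2V7, 2 genes were called with S3 (6.25%, against 4.16%), 7 with S4 (21.9%, against 24.5%) and 6 with S7 (18.8%, against 14.3%). ADAR had 299.6, 278 and 306 CPM in N2V7_S4 and 309, 293 and 294 CPM in N2V7_S7 libraries, against 412, 383 and 390 CPM in N2V7_NTG. It fell without overlap in both, by 0.43 and 0.40 log2 units (adjusted p = 3.97e-11 and 1.74e-10). TRIM25 (-0.54 ± 0.08 and -0.41 ± 0.08) and STAT2 (-0.67 ± 0.09 and -0.43 ± 0.09) also fell in both. Without library 2 of N2V7_S4, the S4 differences were -0.38 for ADAR, -0.43 for TRIM25, -0.41 for STAT2 and 0.48 for IRF1, all still called. The S4 calls of IFIT1 (0.25), TRIM21 (0.45) and PML (-0.24) ended without it, and that of IFIT1 also without N2V7_NTG library 1 or 2 and that of TRIM21 without N2V7_NTG library 2 or 3 or N2V7_S4 library 3. With S3, ISG20 rose by 1.66 ± 0.47 (adjusted p = 0.00873) and IFI6 fell by 0.75 log2 units (-0.75 ± 0.19, adjusted p = 0.00365). The IFI6 call ended without N2V7_NTG library 3, its highest library (-0.38), and that of ISG20 without N2V7_NTG library 1 or 2 (1.40 to 1.48).

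For N2V8, 2 genes were called with S3 (6.25%, against 3.06%), and 0 with S4 (against 6.15%) or S7 (against 7.33%), where 4 genes each had an unadjusted p under 0.05 by edgeR. With S3, ISG20 had 3.36, 2.92 and 2.78 CPM, against 0.850, 1.97 and 0.777 CPM in N2V8_NTG (1.34 ± 0.46, adjusted p = 0.0353). IFI35 had 2.43, 2.62 and 3.71 CPM in N2V8_S3 libraries, against 1.61, 1.38 and 1.26 CPM in N2V8_NTG (1.03 ± 0.31, adjusted p = 0.0141). Neither overlapped. The ISG20 call ended without any library but N2V8_NTG library 2 (1.12 to 1.39) and that of IFI35 without N2V8_NTG library 3 or N2V8_S3 library 3 (0.82 to 0.96). Members of the IFIT, HERC, SAMD9 and DDX60 families share similar sequence, and reads that match several of them were divided by estimation, so that values of single members are uncertain to that extent.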

How the data were processed

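The authors sequenced RNA of 54 libraries and quantified transcripts with Salmon (version 1.5.2 in the submitters' processing notes). They deposited gene-level estimated counts, scaled for transcript length, which were rounded to whole numbers here. A deposited TRUE or FALSE column, the authors' own mark of genes kept, was not used. All count columns matched a sample (0 did not). The kit kept strand, and whether counting used it is not given in the sources used here.

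Genes were filtered with filterByExpr, scaled by TMM and fitted over all 54 libraries with 1 RUVr factor (23.0% of residual variance) in edgeR 4.0.16 (R 4.3.3, limma 3.58.1), by quasi-likelihood tests. Genes were called at a fold change over 1.25 and a Benjamini-Hochberg adjusted p under 0.05 within each family of comparisons. SE is a standard error, and intervals are 95%. CPM were computed from the scaled libraries without the factor. Whether p-values measure more than the spread between these libraries rests on the labels' statement of independent replicates. Counting error alone limits genes near 1 CPM.

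The members and gene lists were chosen with earlier results of these data known. Up to 5 called rises and falls per comparison with the largest change and a mean of at least 1 CPM were named, with 11 genes given regardless, and up to 3 called genes per other list. OASL and IFI27, below that level, and OAS3, TRIM25 and PARP9, beyond the largest 5 of 1 comparison, were named after their values were seen. Alternatives were no factor, limma-trend, DESeq2 1.42.0 and its size factors, no filter, a replicate block, only the compared libraries, a threshold of 0.01, adjustment per comparison, and leaving out each library. The fit was tested on simulated data. Replicate numbers did not pair the libraries. A listed gene is not reported here. Figures used Python 3.11.15 and matplotlib 3.10.9.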

Additional observations from a re-analysis of the deposited data

Results flagged for a closer look

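The effect of crRNA-13 differed between effectors for 9 tested pairs of gene and effectors, by the test of the difference itself. Between N2V8 and WT these were IRF9 (1.41 ± 0.30), IFIT3 (1.14 ± 0.41, adjusted p = 0.0367) and DDX60 (0.79 ± 0.29, adjusted p = 0.0403). Between N2V7 and WT they were TRIM25 (-0.42 ± 0.11) and HERC6 (0.48 ± 0.17, adjusted p = 0.0398). Between N2V8 and N2V7 they were DTX3L (0.44 ± 0.16, adjusted p = 0.0431), STAT2 (0.41 ± 0.13, adjusted p = 0.0153), ADAR (0.33 ± 0.06, adjusted p = 6.65e-05) and HERC5 (-0.40 ± 0.12, adjusted p = 0.0109). IRF9 and TRIM25 held whichever library was left out. The others ended without certain libraries, over 0.82 to 1.07 for IFIT3, 0.57 to 0.70 for DDX60, 0.37 to 0.49 for HERC6, 0.34 to 0.46 for DTX3L, 0.30 to 0.32 for ADAR and -0.33 to -0.28 for HERC5, and at 0.33 for STAT2.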

How the results depend on the processing

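Of 91 calls of a gene in a comparison, 42 held in every fit that left out a library of the compared groups or library 2 of N2V7_S4. The threshold of 0.01 was not applied to these 91 calls one by one. In every other alternative 58 held, 39 held in both, and 0 changed direction. The 11, 12, 7 and 5 calls of WT_NTG, N2V7_NTG, N2V8_NTG and ASO2 against UT stayed within 1.5 times under every alternative. For WT_S13, 2 calls became 1 without the factor, with limma-trend or at an adjusted p under 0.01. For N2V7_S13, 3 became 1 with only the compared libraries. For N2V8_S13, 1 became 2 with no filter and 0 at an adjusted p under 0.01. The 27 calls of the further crRNAs became 15 with only the compared libraries and 13 at an adjusted p under 0.01. The 9 differences in the crRNA-13 effect became 4 without the factor, 5 with DESeq2 and 3 at an adjusted p under 0.01, and the 13 calls between effectors with NTG became 8 at that threshold. The causes were not tested. With 1 library left out, counts ranged over 1 to 3 for WT_S13, 0 to 6 for N2V7_S13, 0 to 1 for N2V8_S13, 10 to 11, 8 to 12 and 6 to 8 for WT_NTG, N2V7_NTG and N2V8_NTG, 5 to 5 for ASO2, 0 to 1 for ASO4, 22 to 29 for the further crRNAs, 6 to 12 for the differences and 9 to 14 between effectors. Leaving out library 2 of N2V7_S4 everywhere, chosen after seeing the data, gave 25 calls for the further crRNAs and 11, 12 and 6 for the NTG groups. Libraries with the same replicate number did not deviate together (mean r 0.00269, against -0.00134 for other numbers), and a replicate block gave 2, 3 and 1 calls for the crRNA-13 comparisons, 11, 11 and 7 for NTG, 5 and 1 for the ASOs and 27, 9 and 13 for the rest. Levels near 1 CPM rest on few counts.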
